A study of Caenorhabditis elegans with 3 samples.

Results

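The binding of ELT-3 outside the promoter windows and bodies of protein-coding genes was examined in first-stage (L1) larvae of Caenorhabditis elegans. ChIP-seq, in which DNA attached to a protein is pulled down with an antibody and sequenced, had given an authors' list of 1202 peaks kept by irreproducible discovery rate (IDR), a measure of how well ranks repeat between lists. Members were chosen by position alone. A peak was kept when its summit lay more than 1000 bp before and more than 200 bp after the 5′ end of all protein-coding genes and in none of their gene bodies. This left 353 of 1202 peaks (29.4%, exact 95% interval 26.8 to 32), called intergenic peaks here. The other peaks had their summits in promoter windows (530), introns (276) or exons (43). The sequence that meets the rule, called eligible here, covered 25.1 Mb of the 100.3 Mb nuclear genome (25%).

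ELT-3 is a GATA-type zinc finger factor known from the epidermis of the worm, where it acts with other GATA factors on genes of the skin and cuticle. GATA factors recognise short sequences built around the letters that give them their name. In a compact genome most regulatory sequence sits close to the gene start, and sequence farther away can hold enhancers, non-coding genes and the ends of neighbouring genes. The larvae were strain OP75, a line with the unc-119(ed3) mutation and the integrated transgene wgIs75, which expresses ELT-3 with GFP-FLAG at its C terminus. All libraries came from this 1 strain, with males and females pooled and sonicated chromatin, so there was no group without the tag to compare with. Whole animals were used, and a peak cannot be assigned to a cell type. Biological replicate 1 was 1 library and biological replicate 2 was 2 technical libraries with a joint alignment.

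The peak lists of both replicates stood far apart, which bears on every result below. All 353 intergenic peaks were overlapped by a replicate 1 peak, and 343 (97.2%) by one of its 1202 strongest. Replicate 2 overlapped 36 of them by at least 1 bp (10.2%, 7.25 to 13.8). That share was 9.73% for all IDR peaks, 9.43% for promoter peaks and 10.1% for intron peaks. It was 3.01% for eligible positions, taken as the share of positions where a peak of the same 296 bp width would meet a replicate 2 peak. The intergenic peaks were therefore overlapped about as often as other peaks of the list. With 1 condition and few replicates, tests are made over peaks. Their p-values describe these lists only, and intervals cover counting error only. No read counts are in the files, and library depth is therefore unknown.

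The sequences with most GATA words are shown first, since they show how the words are arranged where several lie together. They are the upper extreme: 11 of 353 peaks had 4 or 5 words, while 29.2% had 1 and 53.5% had none. A GATA word is any of 4 words, AGATAA or AGATAG or the words TGATAA or TGATAG, on either strand, so that TGATAA also reads as TTATCA. Each sequence below reaches 50 bp to either side of the summit of 1 intergenic peak. It is named by the gene with the nearest 5′ end, except the first, whose nearest gene has a clone name only and which is named by nhr-5 on its other side. Capitals mark the GATA words. All sequences are read 5′ to 3′ from the RefSeq copy of WBcel235, the assembly that ce11 denotes.

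nhr-5, chrIV:15395336-15395436, plus strand: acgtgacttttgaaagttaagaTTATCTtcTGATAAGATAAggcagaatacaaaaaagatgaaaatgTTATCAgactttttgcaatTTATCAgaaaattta
zig-13, chrIII:154333-154433, plus strand: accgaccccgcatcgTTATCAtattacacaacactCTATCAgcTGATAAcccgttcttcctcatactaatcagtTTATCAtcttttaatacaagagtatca
acly-1, chrX:1478041-1478141, plus strand: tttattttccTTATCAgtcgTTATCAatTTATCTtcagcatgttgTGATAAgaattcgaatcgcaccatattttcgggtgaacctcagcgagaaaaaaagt
idpb-4, chrII:8740507-8740607, plus strand: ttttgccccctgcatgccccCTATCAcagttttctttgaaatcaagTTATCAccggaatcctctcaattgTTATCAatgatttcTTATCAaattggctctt
C08E8.3, chrV:18346206-18346306, plus strand: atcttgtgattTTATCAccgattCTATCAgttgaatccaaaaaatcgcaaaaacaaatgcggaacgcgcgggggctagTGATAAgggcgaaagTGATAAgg
sdz-19, chrX:12500976-12501076, plus strand: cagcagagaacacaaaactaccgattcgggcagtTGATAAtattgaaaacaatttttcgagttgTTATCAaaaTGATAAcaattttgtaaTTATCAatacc

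The first of these, 4891 bp upstream of the hormone receptor gene nhr-5, held 5 GATA words, the highest number found, although its signal of 50.2 was close to the median. The peak near zig-13, a gene of the secreted immunoglobulin-domain family, had 4 words and a signal of 91.2. Its summit lay 6 bp past the 3′ end of zig-13. The peak at -1451 bp from acly-1, named for ATP citrate lyase, had 4 words and a signal of 89.0, and the one at -3001 bp from idpb-4 had 4 words and a signal of 87.3. The peak at -3873 bp from C08E8.3 (signal 76.1) and the one downstream of sdz-19 (signal 71.9) also had 4. In all, 20 intergenic peaks had 3 or more words within 50 bp of the summit. Others among them lay between cbl-1 and lin-41 (4 words, signal 102.8) and near nhr-48 (4 words, signal 66.6), C31C9.6 (4 words, signal 58.9) and mml-1 (4 words, signal 57.0).

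GATA words were found at 164 of 353 intergenic summits (46.5%, exact interval 41.2 to 51.8). The background was 38.9% for all IDR peaks and 20% for 244246 windows of that size that tile the eligible sequence. In windows of equal size 500 bp to the lower-coordinate side, 87 of the same 353 peaks had a word (24.6%). The difference was 21.8 percentage points, with a word only at the summit in 114 peaks and only in the flank in 37 (two-sided exact McNemar test, p = 2.53e-10). With 25 bp each side it was 14.4 percentage points (exact McNemar p = 6.49e-07). Peaks with 2 or more words numbered 61 (17.3%) at the summit and 17 (4.82%) in the flank. At the summit, 15.1% of all IDR peaks, 19.2% of intron peaks and 12.1% of promoter peaks had 2 or more, so the intergenic share is near that of the list. The summit-to-flank contrast rested on replicate 1. In the 1202 strongest peaks of replicate 2 alone, 250 met the position rule, and 23.6% of them had a word at the summit against 23.2% in the flank (exact McNemar p = 1). In those of replicate 1 alone the shares were 46.7% and 23.4% (exact McNemar p = 1.58e-11).

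Summits were richer in G and C than their surroundings, with a median of 42.6% against 32.7% in the flanks and 33.7% in eligible windows. Eligible windows whose GC content fell between the quartiles of the intergenic peaks (37.6 to 48.5%) had a GATA word in 16.7%. The 190 intergenic peaks of that range had one in 45.3%. The reference marks repeats in lower case. It did so at the summits of 54 of 353 peaks (15.3%) and at 40.3% of eligible bases. Without those peaks the share was 43.8% at the summit against 24.7% in the flank (exact McNemar p = 4.36e-07), a setting chosen once the data had been seen.

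The intergenic peaks had GATA words more often than promoter peaks, and no difference from intron peaks was shown. Promoter peaks had a word in 150 of 530 (28.3%), a difference of 18.2 percentage points (odds ratio 2.2, interval 1.64 to 2.94, Fisher's exact test, two-sided, adjusted p = 1.34e-07 by Benjamini-Hochberg over 3 classes). Intron peaks had one in 137 of 276 (49.6%), a difference of -3.18 percentage points (odds ratio 0.88, interval 0.634 to 1.22, Fisher's exact test, adjusted p = 0.469). Exon peaks had one in 17 of 43 (39.5%, odds ratio 1.33, interval 0.666 to 2.7, adjusted p = 0.469 by the same exact test). The difference from promoter peaks was 8.04 percentage points with 25 bp each side of the summit (Fisher's exact test, adjusted p = 0.0131) and 27.4 among the 601 strongest peaks (adjusted p = 8.88e-09). With replicate 2 alone it turned to -2.14 percentage points (Fisher's exact test, adjusted p = 0.621). The classes also differed in base composition at the summit, with a median GC content of 47.5% in promoter, 42.6% in intergenic and 43.6% in intron peaks. The part of GC content in the difference from promoter peaks was not tested.

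**Figure D1:**
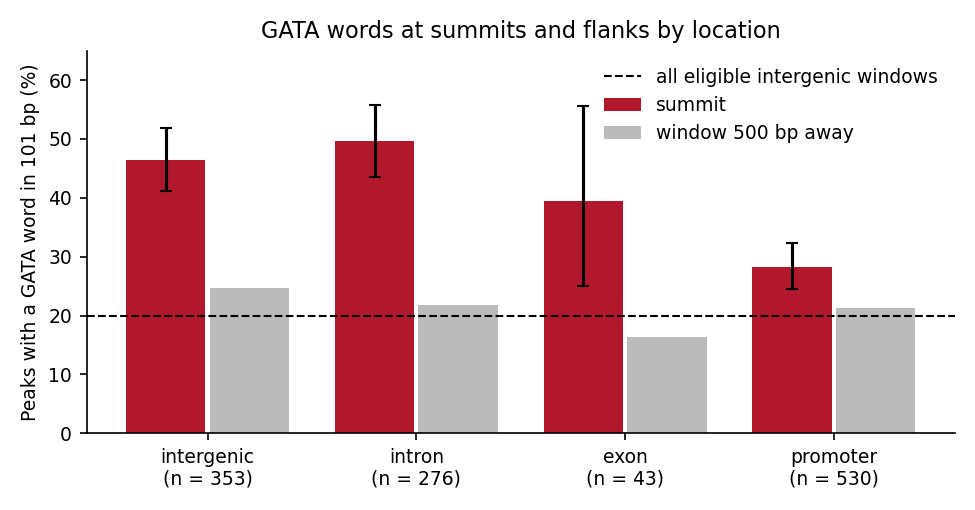
Share of peaks with a GATA word within 50 bp of the summit (red, with exact 95% intervals) and in a window 500 bp away (grey), by location of the summit. The dashed line is the 20% of eligible intergenic windows; intergenic peaks stand at 46.5% and promoter peaks at 28.3%.

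Among the 4 words TGATAA was the most frequent, both at summits and in flanks. It lay within 50 bp of 102 intergenic summits (28.9%), against 38 in the lower flank and 33 in the higher flank at the same distance. TGATAG was at 41 summits, against 17 and 18 flanks. AGATAA was at 39, against 28 and 18, and AGATAG at 30, against 19 and 10. The word GATAAG, which overlaps the words ending in GATAA, was at 73 summits (20.7%) against 11 and 16 flanks. The 257 words at the summits formed 93 neighbouring pairs with a median spacing of 15 bp between starts, and 61 of these pairs had both words on 1 strand. A start within 10 bp of the next was seen in 34 pairs, and words can overlap, as in the first sequence above. In bins of 20 bp along the peaks, the share with a word was between 10.2% and 16.1% within 80 bp of the summit and between 4.82% and 9.07% from there to 300 bp.

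**Figure D2:**
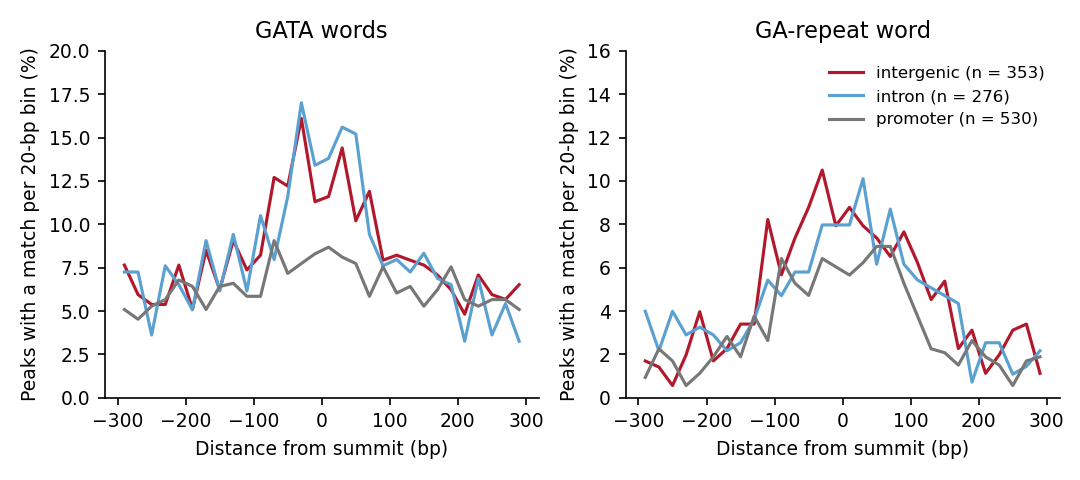
Share of intergenic (red), intron (blue) and promoter (grey) peaks with a GATA word (left) or the word GAGAGA (right) in bins of 20 bp along 300 bp each side of the summit. For intergenic peaks the GATA words reach 16.1% per bin and GAGAGA 10.5%, both in the bin from 40 to 20 bp before the summit.

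The other 189 intergenic summits had none of the 4 words, among them the peak of highest signal. Sequences of 4 strong peaks without a word are shown for contrast, with capitals kept for the word GAGAGA, which these 4 windows do not hold. The second strongest peak without a word, near Y48G8AR.8 (signal 118.9), does hold GAGAGA and is not among the sequences shown.

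W02H3.3, chrX:11094149-11094249, plus strand: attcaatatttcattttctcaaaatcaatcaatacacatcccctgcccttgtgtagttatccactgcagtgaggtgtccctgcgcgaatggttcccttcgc
gtr-1, chrX:806631-806731, plus strand: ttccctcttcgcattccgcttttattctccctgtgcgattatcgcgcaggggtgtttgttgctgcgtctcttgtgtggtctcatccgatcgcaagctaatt
K02D3.1, chrX:13700799-13700899, plus strand: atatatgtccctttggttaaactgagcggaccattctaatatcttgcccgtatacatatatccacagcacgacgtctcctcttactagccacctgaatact
ekl-5, chrX:13920513-13920613, plus strand: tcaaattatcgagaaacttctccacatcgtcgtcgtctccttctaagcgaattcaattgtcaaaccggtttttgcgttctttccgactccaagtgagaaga

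Of the 189 peaks, 79 (41.8%) held GATA on either strand without making 1 of the 4 words. GAGAGA, a GA repeat picked after its counts were seen and therefore given without a test, lay within 50 bp of 105 intergenic summits (29.7%, 25 to 34.8) and of 19 lower flanks and 18 higher flanks. The background was 27.1% of all IDR peaks and 5.33% of eligible windows, so the intergenic share is near that of the list. GAGAGA was at 64 of the 189 peaks without a GATA word (33.9%) and at 41 of the 164 with one (25%). Neither kind of word was found at 125 peaks (35.4%).

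The signal, the authors' value for the height of a peak, ran from 35.5 to 185.4 in the intergenic peaks, with quartiles of 41.1, 48.5 and 61.5. Promoter peaks had the same median of 48.5 and a highest value of 276.4, and intron peaks had a median of 47.0. Of the 100 strongest IDR peaks 31 were intergenic, which is 8.78% of the intergenic peaks, against 8.32% of all IDR peaks. The −log10 q-value was at the highest value of the list, 3.32, for 305 of 353 peaks, so it does not rank them. From the lowest to the highest quartile of signal, GATA words were at 37.5%, 45.5%, 56.8% and 46.1% of the intergenic peaks, and the exact intervals of neighbouring quartiles overlapped.

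**Figure D3:**
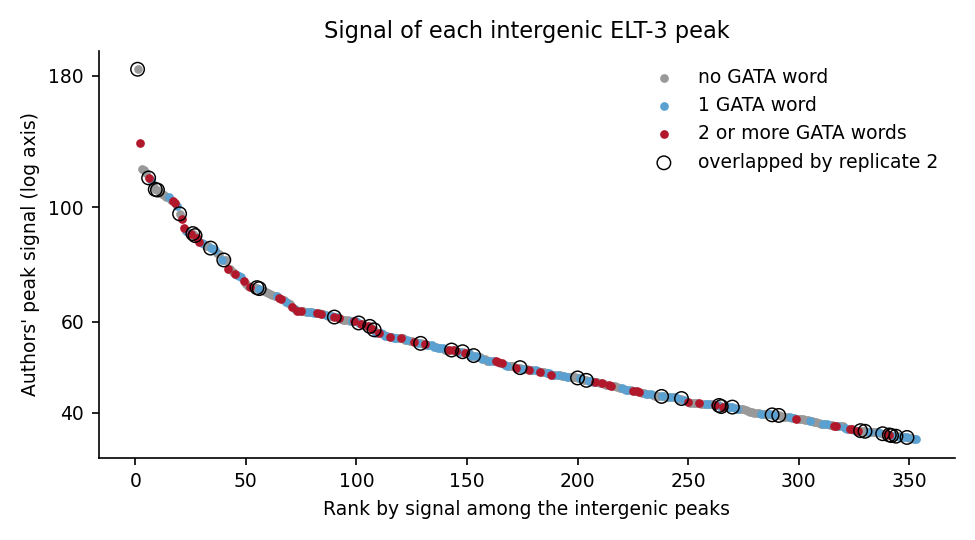
Authors' signal (log axis) of all 353 intergenic peaks in order of rank, coloured by the number of GATA words within 50 bp of the summit. Black rings mark the 36 peaks overlapped by replicate 2, whose signals run from 35.8 to 185.4.

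The strongest intergenic peak lay between the 3′ ends of W04G3.11 and W02H3.3 on X (chrX:11094051-11094346). Its signal was 185.4 in the IDR list, 180.4 in replicate 1 (rank 3) and 3.21 in replicate 2 (rank 1049), each on the scale of its own list, and it had no GATA word. The second, at -6374 bp from Y37A1A.2 (chrIV:13919255-13919550), had a signal of 133.3 and 2 words. It had 132.8 in replicate 1 and no overlapping peak in replicate 2. Next came a peak of 118.9 past the 3′ end of Y48G8AR.8, followed by 118.3 between gtr-1 and F25E2.2 and by 116.6 between K02D3.1 and adm-2, a gene of the ADAM metalloprotease family. Of the 20 strongest, 10 were on X, 6 lay between 2 converging genes, 7 had a GATA word and 5 were overlapped by replicate 2. Over all 353 intergenic peaks the shares were 28.3% on X, 15% between converging genes, 46.5% with a GATA word and 10.2% overlapped by replicate 2. The GATA share of the 20 was 35% (exact interval 15.4 to 59.2), and none of these differences was tested.

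Several of these strong peaks flank genes with known roles. A peak at 1689 bp from the 5′ end of mdl-1, a bHLH factor of the Max network, lay 141 bp past its 3′ end (signal 108.4 in the IDR list, 109.2 in replicate 1, 2.97 in replicate 2). Another lay 5827 bp upstream of mdl-1 and at -3223 bp from R03E9.2 (signal 112.9, 1 word). The peak at -1754 bp from egl-9, which encodes the prolyl hydroxylase that marks HIF-1 for destruction, had a signal of 106.2 and no word. The peak at -1019 bp from ppm-2, a protein phosphatase gene, had 104.6 and no word. Between cbl-1 and lin-41, a regulator of developmental timing, a peak of 102.8 with 4 words lay 317 bp upstream of the microRNA gene mir-79, which is known to act in the epidermis. Further peaks of the 20 strongest were near M163.1 (114.1), ekl-5 and meg-2 (111.0), T27A8.7 (108.1), F40E3.3 and mage-1 (107.1), nspe-7 (105.9), Y37D8A.5 (104.6), F55G7.5 and dot-1.4 (103.4), C27D8.1 (101.9), irld-18 and dmd-6 (100.6) and C30E1.4 (97.2).

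By distance, the intergenic peaks lay somewhat nearer to a 5′ end than eligible bases did. The median summit lay 2362 bp from the nearest protein-coding 5′ end, with quartiles of 1519 and 3851 bp, against a median of 2756 bp for eligible bases (quartiles 1701 and 4621). Within 2 kb of a 5′ end there were 136 peaks (38.5%, 33.4 to 43.8), against 33.2% of eligible bases. Beyond 5 kb and up to 10 kb there were 42 (11.9%, 8.71 to 15.7, against 17.6%), and beyond 10 kb there were 9 (2.55%, 1.17 to 4.78, against 4.24%). The nearest 5′ end lay downstream of the summit, so that the peak was upstream of that gene, in 242 cases (68.6%, 63.4 to 73.4, against 66.5% of eligible bases). GATA words were at 39.7% of the peaks within 2 kb, 45.3% of those at 2 to 3 kb, 53.8% at 3 to 5 kb and 52.4% at 5 to 10 kb, with overlapping intervals.

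**Figure D4:**
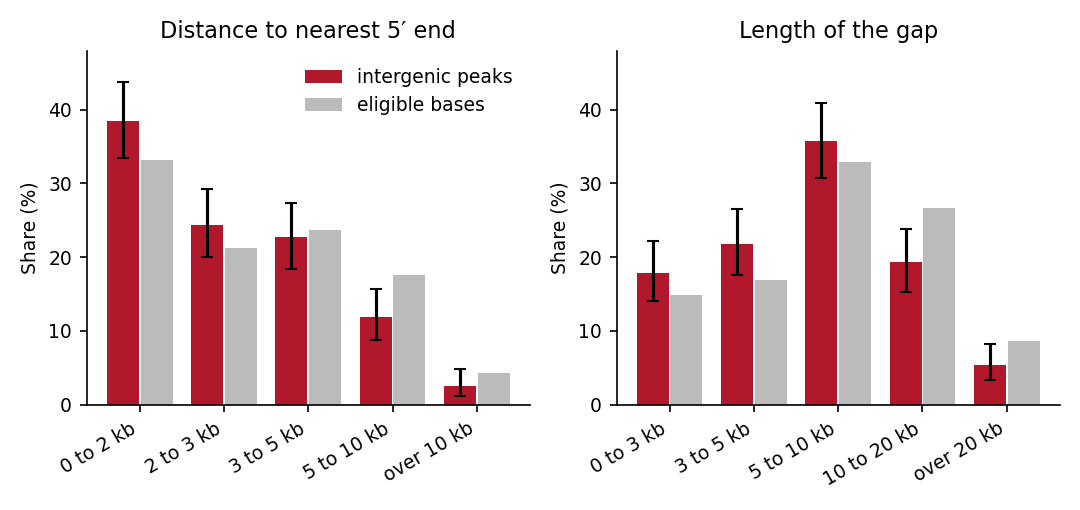
Share of intergenic peaks (red, exact 95% intervals) and of eligible bases (grey) by distance to the nearest protein-coding 5′ end (left) and by length of the gap between protein-coding genes (right). Peaks exceed bases within 2 kb (38.5% against 33.2%) and fall below them in gaps of 10 to 20 kb (19.3% against 26.7%).

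The farthest peaks lay at 16226 bp from Y23H5B.5 (signal 69.1, no word), -13371 bp from irld-18 (signal 100.6, 1 word) and -11566 bp from alr-1, an aristaless-related homeobox gene (signal 65.2, no word). Another was 11536 bp from the 5′ end of snt-1, which encodes synaptotagmin, in the gap before egl-27 (signal 38.9, 2 words), and the last was 11243 bp from got-2.2 (signal 39.3, no word). At the limit of the rule, the nearest members upstream of a 5′ end were at -1015 bp from mml-1 (signal 57.0), -1016 bp from hint-3 (41.3) and -1019 bp from ppm-2 (104.6). The promoter peaks nearest to them were at -1000 bp from rhy-1 (69.0), -998 bp from ain-1 (58.6) and -995 bp from R10D12.1 (41.3). The members nearest a gene body lay 1 bp from F37C4.6 (39.6), 2 bp from plin-1 (61.3) and 6 bp from zig-13.

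The orientation of the flanking genes gave nearly the same shares as the eligible bases. Genes in tandem flanked 188 peaks (53.3%, against 53.4% of eligible bases), diverging genes 111 (31.4%, against 29.8%) and converging genes 53 (15%, against 16.5%). GATA words were at 58 of the 111 peaks between diverging genes (52.3%, 42.6 to 61.8) and at 17 of the 53 between converging genes (32.1%, 19.9 to 46.3). The difference was not tested.

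The 353 peaks were spread over 297 of 8986 gaps that hold eligible sequence (3.31%). A single peak was found in 249 gaps, 2 in 40 and 3 in 8, and 85 peaks (24.1%) had another IDR peak within 2000 bp. The matching share of all IDR peaks is not given here, so no clustering particular to the intergenic peaks can be read from these counts. The gap of 7423 bp between M163.1 and fbxa-141 on X held 3 with signals from 41.8 to 114.1, and 4 intergenic peaks in all had M163.1 as the nearest gene. The longest gap with a peak, 35563 bp between irld-18 and dmd-6, a DM-domain gene, held 3 with signals from 35.9 to 100.6, each with a GATA word. Another 3 lay between lpin-1, the lipin gene, and letm-1 (42.9 to 54.9, each with a word). The gaps between W09D10.4 and tat-3, a phospholipid flippase gene, between K08B12.3 and dmd-7, and between F45D3.4 and sel-1, which acts in degradation from the endoplasmic reticulum, also held 3 each. So did the gap between mxl-3, a Max-like bHLH gene, and C49F8.15 (43.0 to 70.5, none with a word). With mdl-1 and mml-1, whose product is a Mondo-type partner in that network, 7 intergenic peaks had a gene of these 3 as the nearest, 2 of them with a word. This group was picked after its values were seen.

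Per megabase of eligible sequence the peaks were densest on chromosome III (18.3, exact Poisson interval 13.6 to 24) and X (17.5, 14.2 to 21.3) and sparsest on V (10.1, 7.52 to 13.2) and IV (11.2, 8.43 to 14.5), with 15.2 on I and 14.2 on II. X held 100 of the 353 peaks. GATA words were at 32 of these 100 (32%, 23 to 42.1) and at 132 of 253 on the autosomes (52.2%, 45.8 to 58.5). Eligible windows had nearly the same share in both, 20.9% on X and 19.8% on the autosomes. The autosomes were not alike: the GATA share of the peaks was 34.9% on I (15 of 43), near that of X. It ran from 51% to 59.6% on II, III, IV and V. GAGAGA was at 16 of 100 on X and at 89 of 253 on the autosomes (35.2%). Replicate 2 overlapped 16 of the 100 and 20 of the 253. These differences were not tested, nor was the part of the overlap with replicate 2 in them.

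Non-coding genes were searched for around the summits, with the summit inside the gene, up to 500 bp before its 5′ end or up to 100 bp after it. Of 353 peaks 99 met this (28%, 23.4 to 33), against 27.6% of eligible positions, so the total was near the background. The classes differed. Genes of the broad annotation class ncRNA were at 57 peaks (16.1%, 12.5 to 20.4, against 6.61% of eligible positions), and 30 summits lay inside one (8.5%, against 1.72%). Small nucleolar RNA genes, whose products guide the modification of ribosomal RNA, were at 9 (2.55%, 1.17 to 4.78, against 0.196%). Transfer RNA genes were at 7 (1.98%, 0.801 to 4.04, against 0.465%) and long intergenic RNA genes at 9 (2.55%, against 0.968%). Pseudogenes went the other way, with 5 peaks (1.42%, 0.461 to 3.27, against 13.2%). The genes for piRNAs, germline small RNAs that cluster on chromosome IV, were at 15 (4.25%, 2.4 to 6.91, against 7%).

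**Figure D5:**
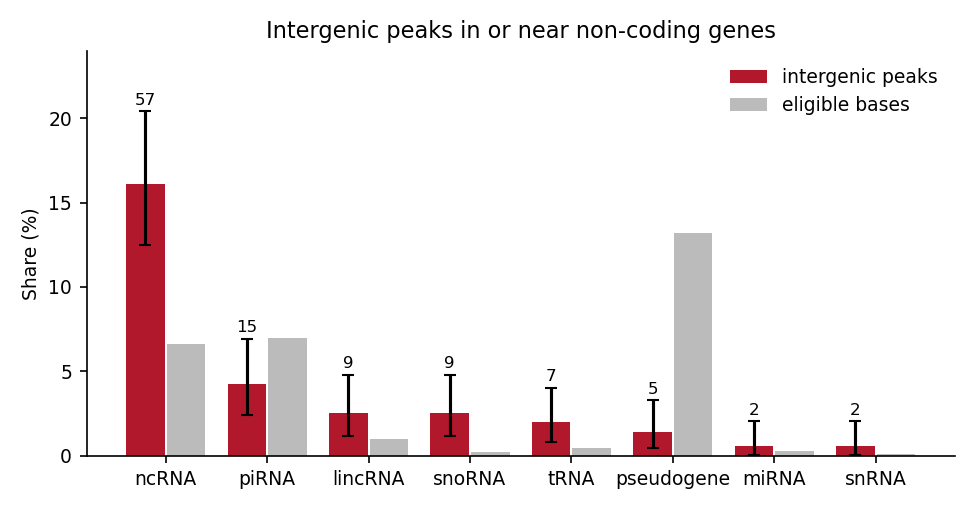
Share of intergenic peaks (red, exact 95% intervals, with the number of peaks above) and of eligible bases (grey) in or near annotated non-coding genes of each class. The ncRNA class is at 16.1% of peaks against 6.61% of bases, and pseudogenes are at 1.42% against 13.2%.

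Peaks beside short structural RNA genes had few GATA words. Of 19 peaks at genes for tRNA, snoRNA, snRNA or microRNA, 2 had one (10.5%, 1.3 to 33.1), while of 254 peaks away from every non-coding gene 124 had one (48.8%, 42.5 to 55.1). The 19 summits had a median GC content of 51.5%, against 41.6% in the 254. A word was at 0 of 7 tRNA peaks, 1 of 9 snoRNA peaks, 0 of 2 snRNA peaks and 1 of 2 microRNA peaks. Of the peaks of the ncRNA class, 18 of 57 had one (31.6%). Peaks near piRNA genes had a word in 12 of 15 (80%, 51.9 to 95.7). Most of these 15 were on chromosome IV, where 33 of all 56 intergenic peaks had a word (58.9%). These differences were not tested. The B box is the internal element of tRNA genes that RNA polymerase III factors recognise. Its core, searched as GTTCGANNC on both strands, was within 50 bp of 6 summits (1.7%), 2 of them near a tRNA gene, and of 1 lower flank and 2 higher flanks. The summit lay inside the gene at only 2 of the 7 tRNA peaks and before its 5′ end at the others. From there a window of 50 bp need not reach an internal element. The count of 2 therefore does not tell how many of these tRNA genes have a B box.

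The snoRNA genes with the strongest peaks were Y23H5B.10 (signal 69.1, summit at -49 bp), Y74C9A.6 (60.6, inside the gene), C54G4.16 (57.2, at -129 bp) and T27A3.9 (52.1, at -25 bp). The snRNA peaks were at sls-2.2 (signal 55.3, at -47 bp) and sls-2.9 (52.5, at -63 bp), genes of the spliced leader SL2, which is added to messages from downstream genes of operons. The sls-2.9 summit also lay 69 bp upstream of a tRNA gene. The other microRNA gene was mir-53, with a summit at -129 bp, a signal of 69.9 and a replicate 2 peak of 2.72. The strongest ncRNA peaks were at R03E9.10 beside mdl-1, F22E12.10 before egl-9, T23F11.10 before ppm-2 and C12C8.8 beside lin-41. The strongest lincRNA peaks were at linc-54 (114.1, summit at -190 bp), linc-128 (89.7), linc-96 (60.9) and linc-107 (58.0). The strongest piRNA peaks were at 21ur-2469 (133.3), 21ur-865 (100.6), 21ur-11069 (94.9) and 21ur-13200 (90.2).

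Flanking genes were grouped by 15 lists, read by the nearest protein-coding 5′ end. In all, 38 of 353 peaks (10.8%) had a gene of a list nearest. The share of eligible bases for all lists together is not given here, so neither an excess nor a shortfall can be read from this total. Nuclear hormone receptors, transcription factors of the steroid receptor type with a large family in worms, were the nearest gene of 24 peaks (6.8%, 4.4 to 9.95), against 1.84% of eligible bases. These peaks belonged to 21 genes, and 22 of the 24 lay upstream. The strongest were at -2304 bp from nhr-162 (signal 89.0 in the IDR list, 87.6 in replicate 1, 2.41 in replicate 2), -1490 bp from nhr-14 (88.2, 85.3 and 7.18) and -6656 bp from nhr-46 (70.1, with no replicate 2 peak). The nhr-14 peak was number 29 of replicate 2. A GATA word was at 7 of the 24 (29.2%, 12.6 to 51.1) and at 157 of the other 329 (47.7%). The gap between the diverging genes nhr-31 and nhr-258 held 3 peaks with signals from 39.1 to 42.9.

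The lists of epidermal genes were near their share of eligible bases. Cuticle collagens were nearest to 3 peaks (0.85%, 0.176 to 2.46, against 0.703% of eligible bases), those of col-3 (signal 41.8), col-181 (39.9) and col-185 (38.4), and none had a GATA word. Of the epidermal and seam cell factors and of the GATA factors, elt-3 alone was nearest to a peak, at -2263 bp (signal 36.6, no word). That is 0.283% of peaks for either list, against 0.337% of eligible bases for the epidermal and seam cell factors and 0.16% for the GATA factors. Chemoreceptor genes, active in sensory neurons, had 3 peaks (0.85%, 0.176 to 2.46, against 5.27%), those of str-144 (62.7), srg-64 (48.3) and str-131 (37.1). Neuropeptide and insulin-like genes had 4 (1.13%, against 1.48%), the strongest at nlp-40 (61.6), nlp-24 (56.1) and ins-13 (55.3). F-box genes had 2 (0.567%, against 1.39%), at fbxb-58 (82.9) and fbxa-141 (69.6), and the transferase and P450 list had 1, at cyp-14A5 (60.9). The ceh homeobox, hlh, T-box, C-type lectin, ribosomal protein, heterochronic and Wnt lists had 0. A count of 0 in 353 has an exact upper bound of 1.04%, above the share of eligible bases of each of these 7 lists, so no shortfall can be read from it.

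The 36 intergenic peaks that replicate 2 overlapped had signals from 35.8 to 185.4, with a median of 52.0 against 48.4 for the other 317. A GATA word was at 11 of the 36 (30.6%, 16.3 to 48.1) and at 153 of the 317 (48.3%, 42.6 to 53.9), a difference that was not tested. The 10 strongest of the 36 were the peaks at W02H3.3, M163.1, mdl-1, T27A8.7, C30E1.4, nhr-162, nhr-14, let-418, W09D10.4 and hrg-5. let-418 encodes a Mi-2 chromatin remodeller, and its peak lay at -3626 bp with signals of 83.4 in the IDR list, 81.1 in replicate 1 and 2.46 in replicate 2. In replicate 2, 16 of the 36 were among its own 1202 strongest peaks.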

How the data were processed

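ELT-3 ChIP-seq was measured in 3 libraries of 1 group with 2 biological replicates. The signal per peak and its −log10 q-value were deposited by the authors in narrowPeak lists, 1 per replicate, 1 pooled and 1 IDR list, per the deposited records of derived files. The aligner is unnamed (not given in the sources used here), as is the peak caller. Signals were compared within a list only. The lists hold no read counts, so their number limits the precision. The ce11 lists were used with Ensembl release 115 genes and the RefSeq sequence of WBcel235, the same assembly, and 0 peaks passed a chromosome end. Replicate 2 also had 25 mitochondrial peaks, which were not used.

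Summits were placed and searched with Python 3.11.15, numpy 2.4.6 and scipy 1.17.1, using exact tests, 95% Clopper-Pearson intervals and a threshold of 0.05. Eligible sequence was tiled in windows of the same size as at the summits from the start of each stretch. Code was tested on simulated data. The members, lists and alternatives were chosen with earlier results of these data known. Named peaks are the 20 strongest, the 5 farthest, up to 10 with 3 or more words, 10 with replicate 2 overlap, up to 6 gaps with 3 peaks, and the strongest per list (3) and per non-coding class (4). The peaks at the limits of the rule, the gaps at lpin-1 and nhr-31, the group of mdl-1, mxl-3 and mml-1, and GAGAGA were added after values were seen. Pseudogene and tRNA peaks, whose genes carry identifiers only, are given as counts.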

Additional observations from a re-analysis of the deposited data

How the results depend on the processing

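Depth is unknown, and the main limit is that the list follows replicate 1. Leaving out 1 replicate at a time (the 1202 strongest peaks of the other) gave 250 to 351 intergenic peaks, a share of 20.8% to 29.2%, and a summit-to-flank difference in GATA words of 0.4 to 23.4 percentage points. The difference from promoter peaks then ran from -2.14 to 18.5, from intron peaks from -0.776 to 2.63 and from exon peaks from -2.03 to 5.81 percentage points, and the share at non-coding genes from 27.9% to 31.2%. In each of these GATA comparisons the value from replicate 2 alone is the one far from the main result, and the cause was not tested. With genes of every class in the rule, 235 peaks remained instead of 353. Replicate 2 peaks covered the summit of 7.08% of the intergenic peaks. Non-coding genes were at 20.7% with a window from 200 bp upstream (eligible positions 21.7%) and at 33.4% with one from 1000 bp upstream (eligible positions 35%). Reading both flanking genes of a gap in place of the nearest 5′ end put 59 peaks in the lists instead of 38, since more genes are read. The difference from intron peaks turned to 0.222 percentage points in windows of 100 bp each side, and that from exon peaks to -0.719 among the 601 strongest peaks of the list; neither passed the test in either setting. Other windows, flanks, words, lists and gene windows kept the direction and the call of the summit-to-flank difference, from 14.4 to 29.5 percentage points. The difference from promoter peaks kept its direction and call in the other windows, among the strongest peaks and outside repeats, from 8.04 to 27.4 percentage points. Among the settings used, 1 peak per gap, summits outside repeats and peaks away from non-coding genes were added after the data were seen. No paired analysis was possible because the samples form 1 group, with no second group to pair them with; the summit-to-flank test pairs windows of the same peak, not samples.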
